A study of Mus musculus with 4 samples.

Results

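The genes described here are 10 antioxidant genes of the mouse linked to the transcription factor NRF2, chosen by name: Nfe2l2, which encodes NRF2 itself, and Hmox1, Nqo1, Gclm, Gclc, Txnrd1, Srxn1, Slc7a11, Prdx1 and Gsta4. All probe sets annotated to one of these symbols were taken, which gave 23 of the 45037 probe sets of the array. Of these, 18 were annotated to a single gene and stood for 9 of the 10 members, out of 18193 genes in all. The 5 probe sets of Prdx1 were each also annotated to Gm21399, so their signal cannot be given to either gene and is reported as shared. The RNA came from bone marrow-derived dendritic cells (BMDC) of male C57BL/6 mice aged 6 to 8 weeks, grown for 7 days with 500 U/ml GM-CSF, a cytokine that drives marrow progenitors to dendritic cells. The live coculture held BMDC and 1D8 cells, a mouse ovarian surface epithelial cell line, at 1 tumour cell to 5 BMDC. The irradiated coculture held BMDC and 1D8 cells that had received 50 Gy. The conditioned medium sample was BMDC in medium with 25% (v/v) 1D8 supernatant, and the control was BMDC without 1D8 cells or their medium. All 4 samples were sorted on the surface protein CD80 before their RNA was taken, and each condition was 1 biological sample on 1 array.

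NRF2 is held at low levels by KEAP1, an adaptor that delivers it to a ubiquitin ligase. Oxidants and electrophiles modify KEAP1, and NRF2 then accumulates, pairs with small MAF proteins and binds antioxidant response elements near genes of glutathione synthesis, thioredoxin recycling, quinone detoxification and haem breakdown. Because control of NRF2 acts largely on the protein, the mRNA of Nfe2l2 need not follow its activity. In myeloid cells these genes buffer the oxidants that the cells make or meet, and HMOX1 and the cystine carrier SLC7A11 are also induced by other stress pathways.

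With 1 array per condition no error could be computed and no test was run, so higher and lower describe these 4 arrays. The values are MAS5 signals, linear intensities per probe set that had been scaled to a common trimmed mean. Signals under 44.3, the median of all signals, were raised to that floor before ratios were taken, and a gene was counted where the signals were at least 2-fold apart. Where the dimmer signal lay under the floor, the fold is a lower bound and is written as "at least". The nearest measure of error was the disagreement between probe sets of the same gene. Over 2641 genes with 2 such probe sets, the log2 ratios of live coculture to control differed by a median of 0.40, and by 1.08 at the 90th percentile. Of 12 dendritic cell markers, 11 in the live coculture and 12 on each other array were above the floor. Against the control the live coculture had 1 of them at least 2-fold higher and 4 lower, the irradiated coculture 2 and 3, and conditioned medium 1 and 2, where all genes had 3.36% and 2.23%, 3.47% and 2.25%, and 2.3% and 1.41%. The higher one on every treated array was Cd80, whose protein was used for the sort, at 378.2, 325.8 and 201.3 against 85.5 in the control, and its conditioned medium call ended with the floor at the 75th percentile (log2 ratio 0.37) and as the mean over its probe sets (0.42). Cd86, another costimulatory gene, was 2.28-fold higher in the irradiated coculture, where its other probe set had a log2 ratio of -0.20. Ccr7, a chemokine receptor of mature dendritic cells, was lower on every treated array, at 131.6, 117.5 and 175.7 against 596.4 in the control, and H2-Eb1, an MHC class II chain, was 3.15-fold and 2.57-fold lower in the cocultures. Among the markers under 2-fold, Itgax, the CD11c gene, was at 1921, 1388 and 2394 on the treated arrays and 2534 in the control. Cd74, the invariant chain of MHC class II, was at 6054, 6864 and 7510 on the treated arrays and 8171 in the control. RNA of bulk samples cannot tell fewer cells of a type from less RNA per cell.

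The 10 genes did not differ from the control as a block. In the live coculture 2 of 9 measured genes, Slc7a11 and Gsta4, were at least 2-fold higher than in the control and none was lower, while the shares of all genes that were higher and lower were 3.36% and 2.23%. In the irradiated coculture the same 2 of 9 genes were higher and none was lower, while among all genes the shares were 3.47% and 2.25%. In conditioned medium none of the 9 was 2-fold apart in either direction, while among all genes the shares were 2.3% and 1.41%. The median log2 ratio of the 9 genes was 0.07 with live 1D8 cells, -0.11 with irradiated 1D8 cells and 0.06 in conditioned medium, beside 0 for all genes in each comparison. Genes under the floor on both arrays give a ratio of 0 by construction. They cannot be called, yet they count in the shares of all genes. Over the 9847 genes above the floor on all arrays, 8 members among them, the medians were -0.04, -0.05 and 0.00. The range around these medians was wide, with log2 ratios from -0.73 to 1.20 in the live coculture. Taken as the mean over probe sets, the medians were 0.28, 0.13 and 0.06 in the same order. Among the 23 probe sets, 6 were at least 2-fold higher with live 1D8 cells, 5 with irradiated 1D8 cells and 2 in conditioned medium, against 4.05%, 3.67% and 2.97% of all probe sets. None of the 23 was at least 2-fold lower in the live coculture, 1 was in the irradiated coculture and none in conditioned medium, against 1.78%, 1.69% and 1.05% of all probe sets. The 3 comparisons share the control array, so their ratios are not independent of each other. Between the treated arrays, Gsta4 was the only one of the 9 genes at least 2-fold higher and none was lower in the irradiated against the live coculture, where 0.302% of all genes were higher and 0.368% lower. Against conditioned medium the live coculture had 1 gene higher, Gsta4, and 1 lower, Nqo1, with 1.75% and 1.14% of all genes. Against the same array the irradiated coculture had 1 higher, Gsta4, and none lower, with 1.95% and 1.24% of all genes. The median log2 ratios of the 9 genes in these comparisons were -0.07, 0.19 and 0.12.

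**Figure D1:**
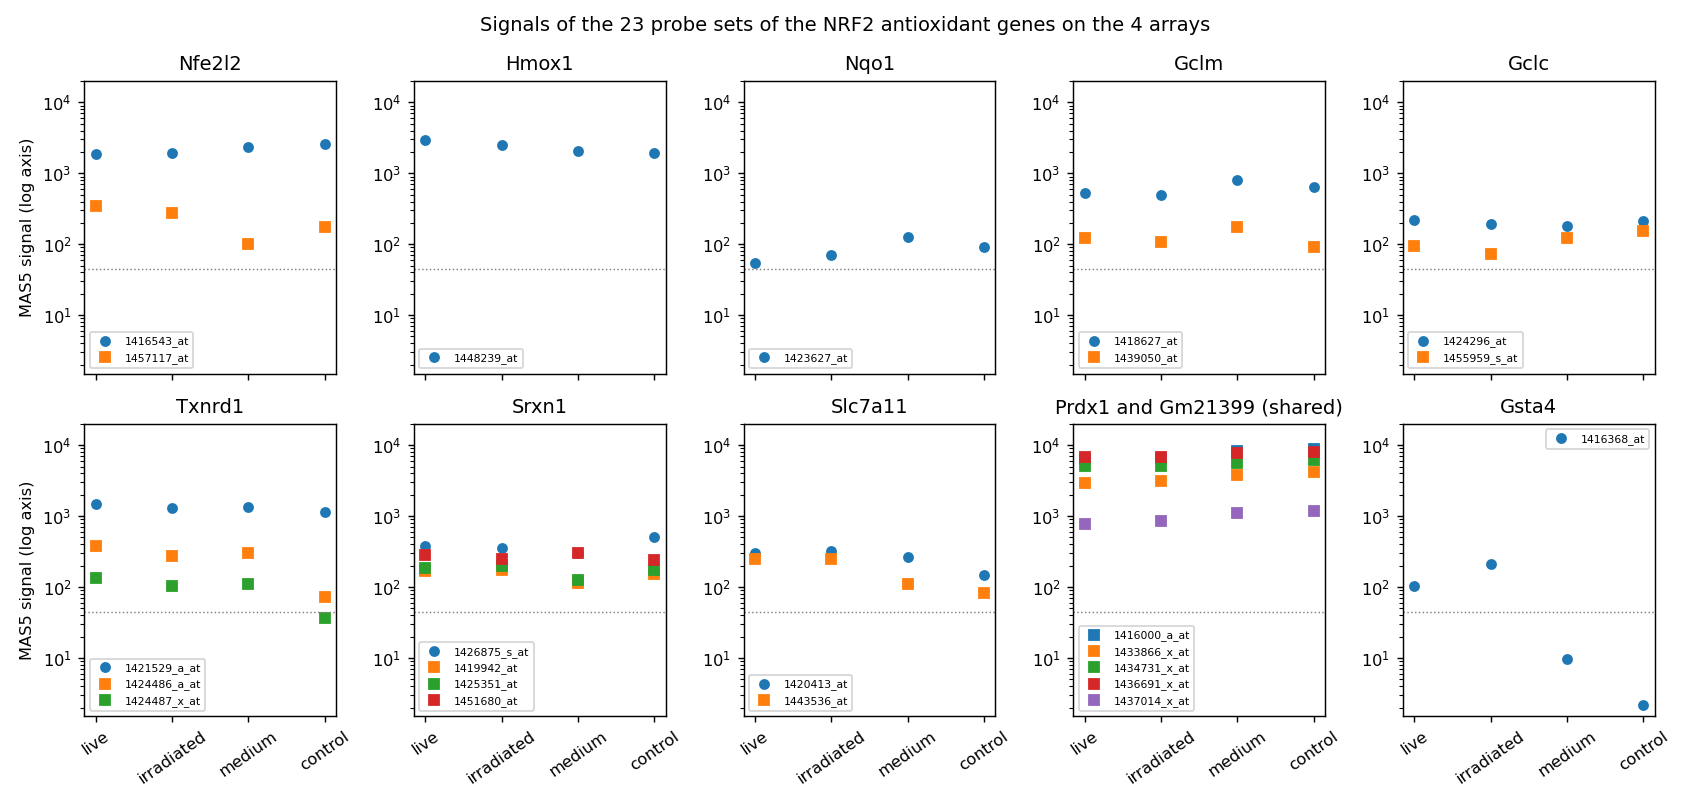
MAS5 signal (log axis) of each member probe set on the live coculture, irradiated coculture, conditioned medium and control arrays, 1 panel per gene and 1 point per array. Circles are the brightest probe set of a gene and squares its other probe sets, with squares for all 5 probe sets shared by Prdx1 and Gm21399, and the dotted line is the floor of 44.3. Slc7a11 and the dimmer Txnrd1 probe sets sit lowest in the control, and Gsta4 lies above the floor only in the cocultures.

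The clearest member was Slc7a11, which encodes the cystine importer of system xc- and so supplies cysteine for glutathione. Its probe set 1420413_at had a signal of 306 with live 1D8 cells, 318.8 with irradiated 1D8 cells and 267.6 in conditioned medium, against 147.5 in the control. All 3 treated arrays were above the control, 2.07-fold, 2.16-fold and 1.81-fold. Its other probe set, 1443536_at, had 250.1, 250.2 and 111.2 on the treated arrays in the same order, against 82.2 in the control. Here the cocultures were each 3.04-fold higher than the control and conditioned medium was 1.35-fold higher. Both probe sets thus lay higher on every treated array, but they differed on conditioned medium, where the cocultures stood 2.25-fold above it at 1443536_at and only 1.14-fold and 1.19-fold above it at 1420413_at. The live coculture call was close to the threshold. Its log2 ratio of 1.05 at 1420413_at became 0.92 after quantile normalization and 0.93 after median centring, both under 2-fold. With the floor at the 75th percentile (155.6) the call also ended, but the ratio of at least 0.98 is a bound there. The control signal of 147.5 lies under that floor. Slc3a2, the heavy chain that pairs with SLC7A11 in the membrane, had signals of 2219, 2112 and 1346 on the treated arrays and 2103 in the control. Its largest difference from the control was 1.56-fold, in conditioned medium.

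The genes of the glutathione ligase did not share the pattern of Slc7a11. Gclc encodes the catalytic subunit of glutamate-cysteine ligase, the first enzyme of glutathione synthesis. Its probe set 1424296_at had signals of 220.7, 194.4 and 179 on the live coculture, irradiated coculture and conditioned medium arrays, against 210.2 in the control. The 4 arrays lay within 1.23-fold of each other, and the sign for the live coculture turned with the scaling, from a log2 ratio of 0.07 as deposited to -0.04 after quantile normalization and -0.05 after median centring. The other Gclc probe set, 1455959_s_at, had 93.9, 72.5 and 121.5 on the treated arrays and 151.3 in the control. It was lower on all of them, and 2.09-fold lower in the irradiated coculture, so the probe sets of Gclc do not give 1 answer for the cocultures.

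Gclm encodes the modifier subunit that raises the activity of that ligase. Its probe set 1418627_at had signals of 520.4 with live 1D8 cells, 496.5 with irradiated 1D8 cells and 816.5 in conditioned medium, against 645.8 in the control. At its other probe set, 1439050_at, the signals were 124.2, 109.1 and 174.7 on the treated arrays and 90.1 in the control. Both probe sets were highest in conditioned medium, 1.26-fold and 1.94-fold above the control. For the cocultures they pointed in opposite directions, with log2 ratios of -0.31 and 0.46 for the live coculture and -0.38 and 0.28 for the irradiated coculture. Against conditioned medium both probe sets were lower in the cocultures, by 1.57-fold and 1.41-fold in the live and 1.64-fold and 1.60-fold in the irradiated coculture.

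Gsta4 encodes a glutathione S-transferase that conjugates 4-hydroxynonenal, a product of lipid peroxidation. Its single probe set had signals of 101.9 in the live coculture and 213.8 in the irradiated coculture, against 9.6 in conditioned medium and 2.2 in the control. Only the cocultures exceeded the floor, so Gsta4 was at least 2.30-fold higher than the control in the live coculture and at least 4.83-fold higher in the irradiated coculture. The irradiated coculture was 2.10-fold above the live one. With the floor at the 75th percentile the log2 ratio to the control was 0 for the live and 0.46 for the irradiated coculture. Part of the markers of the tumour cell lineage were also higher in the cocultures than in the control. Of 21 measured epithelial and mesothelial markers, 6 were at least 2-fold higher with live 1D8 cells, 7 with irradiated 1D8 cells and 0 in conditioned medium. None was lower, and among all genes 3.36%, 3.47% and 2.3% were higher. In the irradiated against the live coculture, 1 of the 21 was at least 2-fold higher. The summed signal of these markers was 3218 and 3849 in the cocultures, 1004 in conditioned medium and 671.4 in the control, with no marker at a signal of 0 on any array. Krt19, a keratin, was at 569.7 and 767.4 in the cocultures, 22.2 in conditioned medium and 8.6 in the control. Their part in the Gsta4 signal, and in the other coculture differences given here, was not tested.

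Gsta4 had the widest range of the members at their brightest probe sets, 4.83-fold after the floor, which bounds it, and Txnrd1 spanned 5.16-fold at 1424486_a_at. On the rule set for the member of widest range, 5 other genes above the floor on all arrays lay nearest to its 3 log2 ratios to the control, of 9847 genes compared. They were Ttc39b, Vdr, Dcn, Hspb1 and Clu, at Euclidean distances of 0.32 to 0.45 on the log2 scale over 3 ratios, which share the control array. Vdr, the vitamin D receptor, had signals of 182.5 and 328.5 in the cocultures, 93.5 in conditioned medium and 77.2 in the control. Dcn, which encodes the matrix proteoglycan decorin and is among the 3 of 14 matrix markers at least 2-fold higher in each coculture, had 201.7 and 324.7 in the cocultures, 78.2 in conditioned medium and 87.6 in the control. Among all genes 3.36% and 3.47% were at least 2-fold higher in these cocultures. The other Dcn probe set had log2 ratios of 0.00, the value that signals under the floor give. As the mean over probe sets, which takes in that 0.00, both coculture calls of Dcn ended (0.60 and 0.95). The live coculture call also ended after quantile normalization (0.99) and with the floor at the 75th percentile (0.37). Since the ratios of Gsta4 are bounds, this order could move with the floor, which was not tried.

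**Figure D2:**
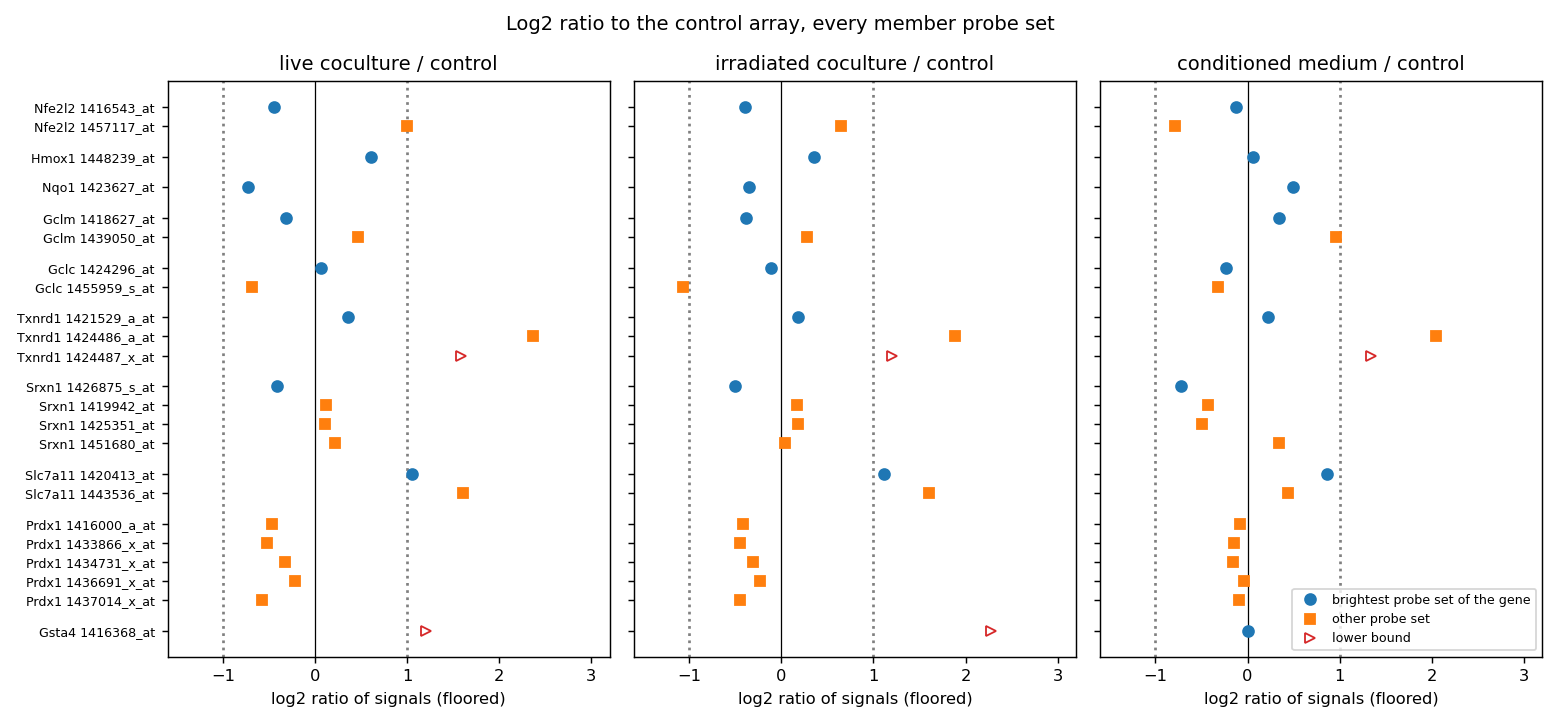
Log2 ratio of the floored signal on each treated array to the control array (x axis) for each of the 23 member probe sets (rows). Circles are the brightest probe set of a gene, squares other probe sets, open triangles lower bounds, and dotted lines 2-fold. Slc7a11 lies right of 0 at both probe sets in all 3 panels, and the Txnrd1 probe sets spread from 0.36 to 2.37 in the live coculture.

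Txnrd1 encodes cytosolic thioredoxin reductase, the selenoenzyme that returns thioredoxin to its reduced form with NADPH. Its 3 probe sets all gave higher signals on every treated array, but by very different amounts. At 1421529_a_at, the brightest, the signals were 1479, 1307 and 1344 in the live coculture, irradiated coculture and conditioned medium, against 1156 in the control, which is 1.28-fold, 1.13-fold and 1.16-fold higher. At 1424486_a_at they were 379.5, 272.2 and 303.8, against 73.5 in the control. This probe set put the live coculture 5.16-fold, the irradiated coculture 3.70-fold and conditioned medium 4.13-fold above the control. At 1424487_x_at the signals were 132.5, 101.9 and 111.9 on the treated arrays and 37 in the control, under the floor. Its folds were at least 2.99, at least 2.30 and at least 2.53 in the same order. The log2 ratios of the 3 probe sets differed by up to 2.01 for the live coculture, 1.71 for the irradiated coculture and 1.83 for conditioned medium. For pairs of probe sets of the same gene the 90th percentile in these comparisons was 1.08, 0.98 and 0.97. Those pairs include Txnrd1 itself, and the largest gap among 3 probe sets is not the same measure as the gap of a single pair. Taken as the mean over its probe sets, Txnrd1 passed 2-fold on all treated arrays, with log2 ratios of 1.43, 1.09 and 1.20. Whether the probe sets read different transcripts of the gene was not tested. Between the treated arrays the 3 probe sets were closer, with log2 ratios of irradiated to live coculture from -0.48 to -0.18.

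Srxn1 encodes sulfiredoxin, which repairs over-oxidised peroxiredoxins. Its 4 probe sets stayed within 2-fold of the control on all arrays. At 1426875_s_at the signals were 375.1, 354.1 and 302.4 in the live coculture, irradiated coculture and conditioned medium, against 500.5 in the control, so the control was highest. The other 3 probe sets gave cocultures slightly above the control, with log2 ratios from 0.11 to 0.22 for the live coculture and from 0.04 to 0.18 for the irradiated coculture. For conditioned medium 3 of the 4 probe sets were below the control, the lowest at a log2 ratio of -0.73, and 1451680_at was above it at 0.35. No direction is given for Srxn1.

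The probe sets shared by Prdx1 and Gm21399 all pointed the same way. PRDX1 is an abundant peroxiredoxin that reduces hydrogen peroxide and is recycled by thioredoxin. At 1416000_a_at the signals were 6361, 6557 and 8266 in the live coculture, irradiated coculture and conditioned medium, against 8760 in the control. All 5 probe sets were lower than the control on every treated array, by 1.16-fold to 1.49-fold with live 1D8 cells, 1.17-fold to 1.36-fold with irradiated 1D8 cells and 1.03-fold to 1.11-fold in conditioned medium. None reached 2-fold, and these are probe sets that share sequence.

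Hmox1 encodes haem oxygenase 1, which splits haem into biliverdin, iron and carbon monoxide. Its probe set had signals of 2993 with live 1D8 cells, 2515 with irradiated 1D8 cells and 2051 in conditioned medium, against 1963 in the control. The cocultures were 1.52-fold and 1.28-fold higher and conditioned medium was within 1.04-fold of the control, with a sign that turned after median centring (log2 ratio -0.05). None of these reached 2-fold.

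Nqo1 encodes a quinone reductase that is widely used as a readout of NRF2 activity. Its signals were 55 with live 1D8 cells, 71.6 with irradiated 1D8 cells and 127.9 in conditioned medium, against 91.1 in the control. The cocultures lay below the control, 1.66-fold and 1.27-fold, and conditioned medium lay above it, at a log2 ratio of 0.49. The live coculture was 2.33-fold lower than conditioned medium. All 4 signals are under the 75th percentile of the table, and with the floor set there the log2 ratio of live coculture to conditioned medium was 0.

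Nfe2l2 itself differed little at its brightest probe set. The signals at 1416543_at were 1889 with live 1D8 cells, 1957 with irradiated 1D8 cells and 2364 in conditioned medium, against 2568 in the control, which is 1.36-fold, 1.31-fold and 1.09-fold lower. After quantile normalization the sign for conditioned medium turned, to a log2 ratio of 0.08. At 1457117_at the signals were 346.6, 271.4 and 100.6 on the treated arrays and 173 in the control. This probe set put the live coculture 2.00-fold and the irradiated coculture 1.57-fold above the control and conditioned medium 1.72-fold below it. The probe sets of Nfe2l2 therefore gave opposite directions for the cocultures, and none is given for the gene.

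Promoter sequences show which of these genes carry letters of the antioxidant response element close to their start. RefSeq promoters of GRCm38.p6, 250 bases before to 50 after a start, were matched for 7 of the 10 members, with 9 promoters. They were searched on both strands for TGACNNNGC and TGAGNNNGC, which are held by 12.4% and 17.6% of all 32851 promoters, and by 27.8% for either. A match was found in 6 of the 9 promoters, in 9 places, of which 5 were the TGAC form and 4 the TGAG form. Nfe2l2, Gclm, Srxn1, Slc7a11 and Prdx1 each had a match in their promoter, as had 1 of the 3 promoters of Txnrd1, and Nqo1 had none in this window. In 2 of the 9 places, 1 in Srxn1 and 1 in Prdx1, the match also holds the 7 letters of an AP-1 site. The 250 bases before the start are shown for the member with the clearest difference, Slc7a11, for the Txnrd1 promoter with a match, and for Srxn1, which had the most matches and no 2-fold difference. Capitals mark matches as they read on the printed strand, 5' to 3'.
Slc7a11, chr3:50443614-50443863, minus strand: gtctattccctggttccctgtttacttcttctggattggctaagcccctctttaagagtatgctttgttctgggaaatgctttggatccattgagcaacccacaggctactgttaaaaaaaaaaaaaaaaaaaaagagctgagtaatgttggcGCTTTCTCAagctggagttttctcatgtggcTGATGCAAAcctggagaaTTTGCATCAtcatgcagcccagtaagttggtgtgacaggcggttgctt
Txnrd1, chr10:82858956-82859205, plus strand: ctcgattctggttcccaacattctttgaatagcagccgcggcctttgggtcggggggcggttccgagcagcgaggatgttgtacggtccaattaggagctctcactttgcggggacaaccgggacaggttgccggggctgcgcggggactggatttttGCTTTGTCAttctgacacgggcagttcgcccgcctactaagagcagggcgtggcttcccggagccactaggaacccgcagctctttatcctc
Srxn1, chr2:152105274-152105523, plus strand: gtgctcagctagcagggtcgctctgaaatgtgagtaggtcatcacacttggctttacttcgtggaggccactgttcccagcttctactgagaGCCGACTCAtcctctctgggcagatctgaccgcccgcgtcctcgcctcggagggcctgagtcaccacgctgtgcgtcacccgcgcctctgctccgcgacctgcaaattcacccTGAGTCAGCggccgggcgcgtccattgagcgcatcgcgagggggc
In Slc7a11 the match of the TGAG form lies on the opposite strand and begins 97 bases before the start. The other capitals of Slc7a11 are matches to TGATGNAAN, a motif of the stress factor ATF4, which begin 66 and 48 bases before the start on opposite strands. This motif was added after the sequence had been seen. It is held by 3.95% of all promoters, and Slc7a11 was the only member with it, at 2 places. In Txnrd1 the match of the TGAC form begins 92 bases before the start, on the opposite strand. In Srxn1 the printed matches of the TGAG form begin 158 and 45 bases before the start, the first on the opposite strand. A match is a description of letters in a window and no sign of binding.

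**Figure D3:**
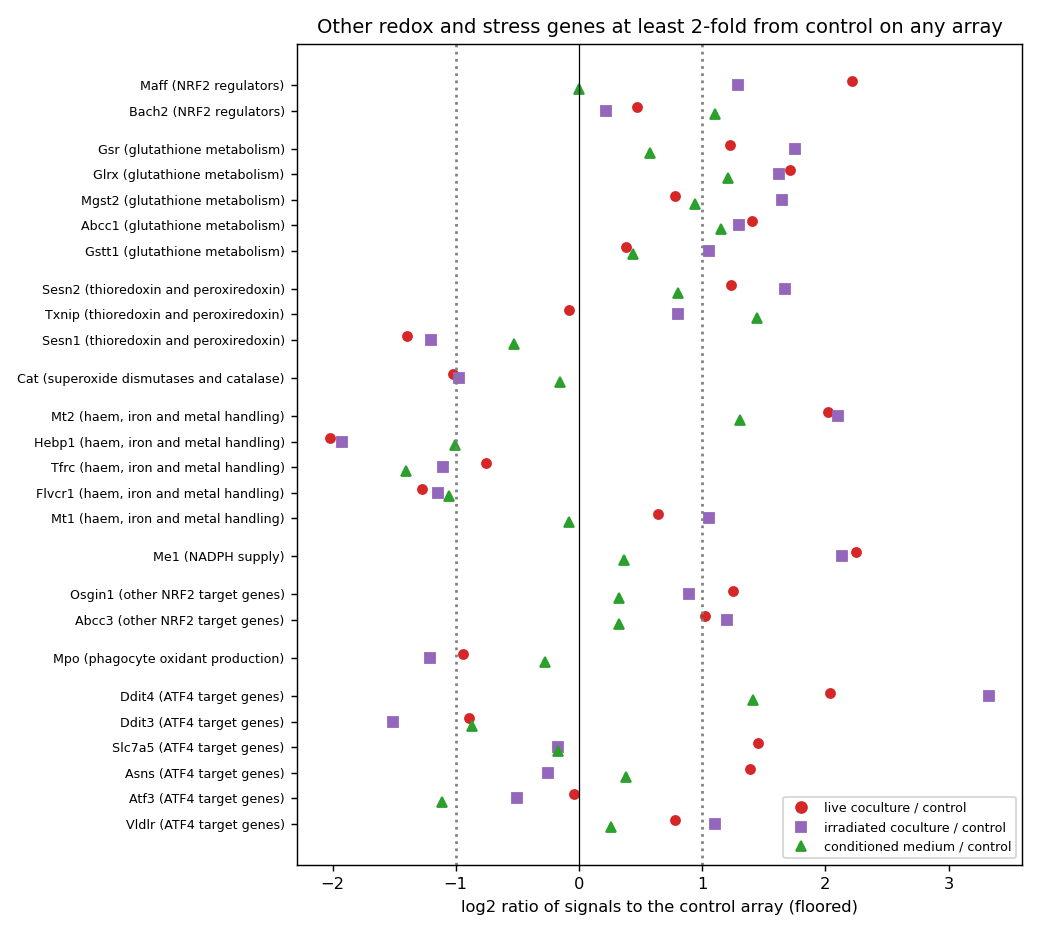
Log2 ratio of the floored signal to the control array (x axis) for the 26 other listed redox and stress genes that were at least 2-fold apart from the control on any treated array, with the list of each gene in brackets. Circles are the live coculture, squares the irradiated coculture, triangles conditioned medium, and dotted lines 2-fold. Glrx and Abcc1 lie right of the 2-fold line on all 3 treated arrays, and Hebp1 and Flvcr1 left of it.

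Most other genes of glutathione metabolism were within 2-fold of the control. Of 26 measured genes of glutathione metabolism, 3 were at least 2-fold higher with live 1D8 cells, 5 with irradiated 1D8 cells and 2 in conditioned medium, and none was lower, beside 3.36%, 3.47% and 2.3% of all genes that were higher. The median log2 ratios of the list were -0.08, 0.00 and 0.06, and Gstm1, a glutathione transferase, had log2 ratios of -0.81, -0.99 and -0.52. Glrx, glutaredoxin, which removes glutathione from protein thiols, had signals of 2050, 1924 and 1446 on the live coculture, irradiated coculture and conditioned medium arrays, against 625.5 in the control. It was 3.28-fold, 3.08-fold and 2.31-fold higher, and its other probe set gave log2 ratios of 2.42, 2.32 and 1.71. Abcc1, an exporter of glutathione conjugates, had 1590, 1479 and 1337 on the treated arrays and 600 in the control. It was 2.65-fold, 2.46-fold and 2.23-fold higher, and log2 ratios at its other probe set were 1.81, 1.82 and 1.39. Gsr, glutathione reductase, had 1306, 1881 and 832.7 on the treated arrays and 557.9 in the control. That is 2.34-fold and 3.37-fold higher in the cocultures and 1.49-fold higher in conditioned medium, where its other probe set had a log2 ratio of 1.45. Mgst2, a microsomal glutathione transferase, was 3.13-fold higher in the irradiated coculture (1039, against 331.5 in the control). Unlike Slc7a11 in the live coculture, the coculture calls of Glrx, Abcc1 and Gsr held under both other scalings, both other floors and the mean over probe sets.

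Most regulators of NRF2 were within 2-fold of the control at their brightest probe sets. Of 15 measured, 1 was higher on each treated array and none was lower, with medians of -0.10, -0.11 and -0.16. Among all genes 3.36%, 3.47% and 2.3% were higher and 2.23%, 2.25% and 1.41% lower. Keap1 had signals of 353.2, 357.5 and 401 in the live coculture, irradiated coculture and conditioned medium, against 491 in the control, but its other probe set was higher on all treated arrays, at log2 ratios of 0.64, 0.33 and 0.81. Bach1, a repressor that competes with NRF2 at Hmox1, had 575.1, 590.4 and 736.3 on the treated arrays and 832.8 in the control. Both stayed within 2-fold, and no direction is given for Keap1. Maff, one of the small MAF partners, was at 205.9 and 108.2 in the live and irradiated cocultures, 22.8 in conditioned medium and 29.3 in the control. It was at least 4.65-fold and at least 2.44-fold higher in the cocultures, calls that were lost with the floor at the 75th percentile. Bach2, a relative of Bach1, was the gene counted in conditioned medium, at least 2.16-fold higher, and its other probe sets had log2 ratios of 0.21 and -0.09. This call ended after quantile normalization (0.92), with the floor at the 75th percentile (0) and as the mean over probe sets (0.41).

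Of 13 genes of the thioredoxin and peroxiredoxin list, 1 was higher and 1 lower in each coculture, and 1 was higher in conditioned medium. Among all genes 3.36% and 2.23% were higher and lower in the live coculture, 3.47% and 2.25% in the irradiated coculture, and 2.3% and 1.41% in conditioned medium. Sesn2, a stress-induced sestrin, was 2.35-fold and 3.18-fold higher in the live and irradiated cocultures, with signals of 232.9 and 314.4, against 98.9 in the control, and its live coculture call ended with the floor at the 75th percentile (log2 ratio 0.58). Sesn1, its relative, was 2.63-fold and 2.30-fold lower. It was under 2-fold as the mean over its 4 probe sets (log2 ratios -0.95 and -0.71), 1 of which gave 0.00, as signals under the floor do. Txnip, which binds and restrains thioredoxin, was at 1353 and 2498 in the cocultures, 3897 in conditioned medium and 1427 in the control, 2.73-fold higher in conditioned medium. Of the 5 genes in the list of superoxide dismutases and catalase, which also holds Ccs, 1 was lower in the live coculture. Among all genes 2.23% were lower there. The median log2 ratios of the 5 were -0.86, -0.89 and -0.41 on the 3 treated arrays. As the mean over probe sets these medians were smaller, at -0.42, -0.41 and -0.10. Sod3 was under the floor on every array and so gave ratios of 0. Cat, catalase, had 831.9, 858.9 and 1518 on the treated arrays and 1690 in the control, while its other probe set had log2 ratios of -0.22, -0.04 and 0.59, and the live coculture call ended after quantile normalization (-0.88). Sod2, the mitochondrial dismutase, had 951.5, 962.8 and 1055 on the treated arrays and 1733 in the control. In the live coculture its other probe sets had log2 ratios of -0.19, 0.00 and -0.64. Sod1, the cytosolic one, had 556, 587.6 and 820 on the treated arrays and 1093 in the control, and neither reached 2-fold. The 4 other probe sets of Sod1 did not share a direction, with log2 ratios from -0.66 to 0.83 in the live coculture.

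In the list of haem, iron and metal genes, 13 were measured. The live coculture had 1 higher and 2 lower, the irradiated coculture 2 and 3, and conditioned medium 1 and 3. Among all genes the shares were 3.36% and 2.23%, 3.47% and 2.25%, and 2.3% and 1.41%. Mt2, a metallothionein, had signals of 3681, 3887 and 2240 on the live coculture, irradiated coculture and conditioned medium arrays, against 904 in the control, which is 4.07-fold, 4.30-fold and 2.48-fold higher. Hebp1, a haem-binding protein, was 4.05-fold, 3.78-fold and 2.01-fold lower, and in conditioned medium under 2-fold after quantile normalization (log2 ratio -0.98). Flvcr1, a haem exporter, was 2.42-fold, 2.21-fold and 2.08-fold lower at its brightest probe set, while its other probe set had log2 ratios of 0.50, -0.29 and 0.06. Tfrc, the transferrin receptor, was 2.15-fold lower in the irradiated coculture and 2.64-fold lower in conditioned medium. Its other probe sets had log2 ratios of 0.38 and 0.00 in the irradiated coculture and 0.25 and 0.00 in conditioned medium, where signals under the floor give 0.00. Fth1, the ferritin heavy chain, lay between 8915 and 9902 on all 4 arrays. Blvrb, a biliverdin reductase, had 1002, 1174 and 1799 on the treated arrays and 1248 in the control.

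The 8 measured genes of NADPH supply had median log2 ratios of -0.49, -0.30 and -0.27 in the live coculture, irradiated coculture and conditioned medium. The medians were 0 for all genes, and -0.04, -0.05 and 0.00 for genes above the floor on all arrays. None of the 8 was at least 2-fold lower. In each coculture 1 was higher, Me1, the cytosolic malic enzyme, where 3.36% and 3.47% of all genes were. It had signals of 262.5 and 242.1 in the live and irradiated cocultures, 71.1 in conditioned medium and 55.2 in the control, 4.76-fold and 4.39-fold higher in the cocultures. Its other probe set gave log2 ratios of 0.00 on all treated arrays, the value that signals under the floor give. At the brightest probe set with the floor at the 75th percentile, the log2 ratios in the cocultures were at least 0.75 and at least 0.64. These are the arrays with higher epithelial markers, and the part of tumour cell RNA in the Me1 signal was not tested. Of 14 other NRF2 target genes, 2 were higher with live 1D8 cells, 1 with irradiated 1D8 cells and 0 in conditioned medium, with none lower. Among all genes 3.36%, 3.47% and 2.3% were higher and 2.23%, 2.25% and 1.41% lower. Osgin1, an oxidative stress induced growth inhibitor, was at least 2.38-fold higher in the live coculture, and Abcc3, a conjugate exporter, was 2.03-fold and 2.30-fold higher in the cocultures. The live coculture calls ended for Osgin1 with the floor at the 75th percentile (log2 ratio 0) and for Abcc3 under both other scalings (0.90). Of 7 genes of phagocyte oxidant production, only Mpo, myeloperoxidase, was 2-fold apart on any treated array at the brightest probe set. Other probe sets of Ncf1 had log2 ratios of 1.65 and 0.94 in the live coculture. They had 1.57 and 1.00 in the irradiated coculture and 1.56 and 0.97 in conditioned medium. Those of Cybb had 0.41 and -1.06, 0.35 and -1.17, and 0.99 and -0.22 in the same order. Mpo was 2.31-fold lower in the irradiated coculture, where 2.25% of all genes were lower. That call ended with the floor at the 75th percentile (log2 ratio 0), while the live coculture, at -0.94, passed 2-fold after quantile normalization (-1.16) and median centring (-1.06). Of 11 neutrophil markers, which include Mpo, 6 were at least 2-fold lower in each coculture, Mpo among them in the irradiated one, and 5 in conditioned medium. Among all genes 2.23%, 2.25% and 1.41% were lower in the live coculture, irradiated coculture and conditioned medium. The part of neutrophil RNA in the Mpo signal was not tested.

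Targets of ATF4, which also acts on Slc7a11, were described for comparison, in a list that holds Atf4 itself. Of 10, the live coculture had 4 higher and none lower, the irradiated coculture 3 and 1, and conditioned medium 1 and 1, with medians of 0.64, -0.06 and -0.02. Among all genes the shares were 3.36% and 2.23%, 3.47% and 2.25%, and 2.3% and 1.41%. Ddit4, an inhibitor of mTORC1 signalling, had signals of 432.2, 1063 and 281.4 on the treated arrays and 105.5 in the control, the widest difference of the list. Asns, asparagine synthetase, had signals of 394.7 with live 1D8 cells, 126.5 with irradiated 1D8 cells and 196.2 in conditioned medium, against 150.6 in the control. It was 2.62-fold higher in the live coculture alone. Slc7a5, an amino acid transporter, was at 136.5 in the live coculture and at 23.1 and 22.2 on the irradiated coculture and conditioned medium arrays, against 49.8 in the control. Ddit3, the CHOP gene, was 2.85-fold lower in the irradiated coculture, at 116.5 against 332.4 in the control. Its other probe set gave log2 ratios of 1.07 for the live and 0.00 for the irradiated coculture, and 0.00 is the value that signals under the floor give. The live coculture call of Slc7a5 ended with the floor at the 75th percentile (log2 ratio 0), and the irradiated coculture call of Ddit3 as the mean over probe sets (-0.76).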

How the data were processed

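RNA of BMDC was measured on 4 Affymetrix mouse arrays, 1 per condition. The deposited values are 1 linear intensity (signal) per probe set, made with GCOS 1.4 and MAS5 per the submitters' processing notes. Their mean after trimming 2% at each end was 150 on every array, and they were used as they stand. Because MAS5 takes off the signal of mismatch probes, dim values scatter. The scaling target is not given in the sources used here.

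The 64 control probe sets were left out. Genes came from the platform annotation. Each of 18193 genes with a probe set of its own (34945 probe sets) was represented by the one with the highest mean log2 signal. Signals under the 50th percentile (44.3) were raised to it, and 2-fold was the threshold. The ratio and calling steps were run on simulated data to check the code. Known folds were put only into bright probe sets, with less noise than the disagreement between probe sets here. The run therefore cannot speak to dim members such as Gsta4 and Nqo1. No test and no p-value was possible with 1 array per condition. The number of arrays limits the precision.

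Named are all members, up to 4 genes of each pathway list and 3 of each marker list at least 2-fold from the control with the largest ratios, and the 5 genes nearest to Gsta4. Other genes, among them Keap1, Bach1, Cul3, Slc3a2, Gstm1, Cd86, Itgax, Cd74, Fth1, Blvrb, Sod1, Sod2, Sod3, Ncf1, Cybb and Asns, were chosen after their values were seen. The members and lists were chosen with earlier results of these data known. Alternatives were floors at the 25th (12.9) and 75th percentile (155.6), quantile normalization, median centring, the mean over probe sets and a 3-fold threshold. A ratio under another floor is likewise a bound where the dimmer signal lies under that floor. Python 3.11.15, pandas 2.3.3 and numpy 2.4.6 were used.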

Additional observations from a re-analysis of the deposited data

How the results depend on the processing

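Each of the 9 measured members was recomputed in 6 comparisons under 5 alternatives, 270 values in all. None of those at least 2-fold apart changed sign, and 243 moved by less than the SD between probe sets of the same gene in that comparison. Part of these 243 could not move by construction, so the count overstates stability. The floor at the 25th percentile cannot change the 8 members above the main floor on all arrays. The floor at the 75th percentile cannot change Nfe2l2, Hmox1, Gclm, Gclc, Txnrd1 and Srxn1, whose brightest probe sets lie above it throughout. The mean over probe sets cannot change Hmox1, Nqo1 and Gsta4, which have a single probe set. Calls of 2-fold were lost for Slc7a11 in the live coculture as given above, and for Gsta4 and Nqo1 with the floor at the 75th percentile, since their signals lie near or under it, and gained for Txnrd1 as the mean over its probe sets. The median log2 ratio of the members moved by less than that SD in each comparison, also with the brightest probe set shared by Prdx1 and Gm21399, an alternative chosen after seeing the data (-0.12 for the live coculture against the control). That SD is of single probe sets, which is wide for a median of 9 genes. As the mean over probe sets the median against the control was 0.28 for the live coculture, beside 0.07. For the irradiated coculture it was 0.13, beside -0.11, so its sign turned.

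The number of genes 2-fold apart depended on the floor and the threshold by construction. Against the control it was 1018 for the live coculture, with 2245 and 513 for the lower and higher floor and 271 at 3-fold. It was 1041 for the irradiated coculture, with 2213, 525 and 326, and 675 for conditioned medium, with 1686, 307 and 98. Between treated arrays it was 122 for irradiated against live coculture, with 1064, 25 and 12, and 61 as the mean over probe sets. It was 526 for live coculture against conditioned medium, with 1571, 241 and 141, and 579 for irradiated coculture against conditioned medium, with 1626, 263 and 160.

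The larger side of the split into higher and lower genes turned with the scaling in 3 of the 6 comparisons. For the live coculture it was 612 higher and 406 lower as deposited, and quantile normalization gave 479 and 482, while median centring gave 490 and 559. For conditioned medium it was 419 and 256, 284 and 340, and 300 and 408. For irradiated against live coculture it was 55 and 67, 60 and 51, and 66 and 44. The higher side stayed the larger for irradiated coculture against the control (632 and 409, 530 and 470, 557 and 504), live coculture against conditioned medium (319 and 207, 310 and 220, 299 and 210) and irradiated coculture against conditioned medium (354 and 225, 377 and 220, 388 and 204). Median centring moved the middle of the log2 ratios of all genes above the floor by -0.12 for the live coculture and -0.11 for conditioned medium, so member ratios smaller than this have no settled sign. No paired analysis was possible because each condition had 1 sample. Signal near the background limits Gsta4 and Nqo1.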
